A study of Mus musculus with 8 samples.

Results

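The translation factor gene Eif4a2 carries 5 small nucleolar RNAs (snoRNAs) in its introns: Snord2, Gm24201, Snora81, Gm26447 and Gm24616. They were chosen by position, as the snoRNA rows of both count tables within a stretch of chromosome 16 inside Eif4a2, and they are 5 of 5518 rows and 5 of 1507 rows typed as snoRNA. A sixth row lies in that stretch, AC154540.1, typed as miRNA, and it is described with Snora81, which it overlaps. Reads on these rows were counted in 8 libraries of total RNA. Mouse embryonic stem (MES) cells, grown without feeders and not induced, gave 2 libraries by target enrichment of small RNAs (TEsR), in which linkers are ligated to both RNA ends and the products are amplified, captured by hybridisation and sequenced on a MiSeq. Mouse embryonic fibroblasts (MEFs) gave 4 TEsR libraries and 2 libraries prepared with the TruSeq small RNA method and read on a HiSeq. All MEFs carried a conditional knock out of TRF2, a telomere-capping protein, with a Rosa26-CreERT2 recombinase switched on by 4-hydroxytamoxifen, and induced cells had received 0.6 µM for 48 hours. The TruSeq libraries are labelled induced. Of the 4 MEF TEsR libraries 2 were induced and 2 uninduced, but their codes (mmS1, mmS2, pmS1, pmS2) are not explained in the labels, so they are treated as a single condition and induction is not compared.

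SnoRNAs guide the chemical modification of ribosomal and other RNAs. Box C/D snoRNAs direct methylation of the ribose, and box H/ACA snoRNAs, which fold into a pair of hairpins joined by the H box and closed by an ACA, direct the change of uridine to pseudouridine. Most are cut out of spliced introns of host genes, many of which encode ribosomal proteins or translation factors. Eif4a2 is such a host and encodes an RNA helicase that unwinds messenger RNA for initiation of translation.

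The sequences of the 5 rows are printed 5′ to 3′ because they separate Snord2, the C/D box member, from the 4 longer members. They were read from the GENCODE vM21 transcripts (mm10, plus strand). In Snord2 the capitals mark ATGATG, the core of the C box, and CTGA, the D box. In the others they mark the first match to ANANNA, the H box pattern, next to the end of the first predicted hairpin, and the ACA in the last 10 bases.
Snord2: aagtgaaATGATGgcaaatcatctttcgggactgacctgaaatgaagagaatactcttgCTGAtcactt
Gm24201: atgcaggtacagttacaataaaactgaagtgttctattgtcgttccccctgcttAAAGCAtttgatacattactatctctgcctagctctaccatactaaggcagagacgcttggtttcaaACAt
Snora81: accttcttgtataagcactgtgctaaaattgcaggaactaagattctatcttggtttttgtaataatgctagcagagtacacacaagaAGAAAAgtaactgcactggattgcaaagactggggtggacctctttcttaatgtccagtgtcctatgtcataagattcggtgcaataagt
Gm26447: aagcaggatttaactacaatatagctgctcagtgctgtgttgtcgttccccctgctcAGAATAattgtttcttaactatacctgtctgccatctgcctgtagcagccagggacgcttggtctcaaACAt
Gm24616: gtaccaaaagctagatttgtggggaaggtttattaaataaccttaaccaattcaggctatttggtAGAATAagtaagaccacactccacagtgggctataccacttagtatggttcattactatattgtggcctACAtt
Snord2 was 69 bases long and the other rows measured 125, 178, 129 and 139 bases in the order printed. Gm24201 and Gm26447 ended 1 base after their ACA and Gm24616 ended 2 bases after it, whereas the Snora81 row held no ACA in its last 10 bases. Of the 1049 snoRNA rows of at least 100 bases, 43.1% held ANANNA at that place, 63.2% held ACA in the last 10 bases and 30.03% held both. Of the 458 shorter rows, 60.7% held both ATGATG in the first 15 bases and CTGA in the last 15. Only the given strand was searched, and a match describes the letters, not a working box.

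Gm24201 and Gm26447 resemble each other, with 71.3% identity over 115 aligned bases. They share TTGTCGTTCCCCCTGCT, a run of 17 bases that ends just before the H box match in each, and GACGCTTGGT, a run of 10 bases close to the 3′ end, and no other snoRNA row held either run. The alignment held 30 mismatches between them. Each was closer to a row elsewhere, Gm24201 to Gm23679 (87.1% over 116 bases) and Gm26447 to Gm22864 (88.6% over 105 bases), both with 0 counts. Gm24616 resembled 6 rows outside Eif4a2, such as Gm25588 (93.5% over 139 bases), all with 0 counts. Snora81 has a near copy, Gm22519 on chromosome 15, with 2 mismatches over 178 bases and 0 counts in all 8 libraries. The sources used here do not say how reads matching both copies were treated, so counts of Snora81 are uncertain. Snord2 resembled no other row of the tables.

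All 5 rows lie on the plus strand in Eif4a2 (chr16:23107444-23114136), in 5 different introns of the 11-exon transcript Eif4a2-201. Snord2 (chr16:23108953-23109021) was in intron 3, Gm24201 (chr16:23110383-23110507) in intron 6, Snora81 (chr16:23110756-23110933) in intron 7, Gm26447 (chr16:23111301-23111429) in intron 8 and Gm24616 (chr16:23111617-23111755) in intron 9. Gm24616, Gm24201, Gm26447 and Snord2 ended 61, 72, 73 and 98 bases before the next exon, and Snora81 ended 192 bases before it. No coding transcript of Eif4a2 had an exon over any of them, though 1 to 3 non-coding transcripts did. RefSeq names Snord2 and Snora81 at this place, the latter as a shorter RNA of 164 bases with the same end, and lists the other 3 at identical coordinates without a snoRNA name.

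**Figure D1:**
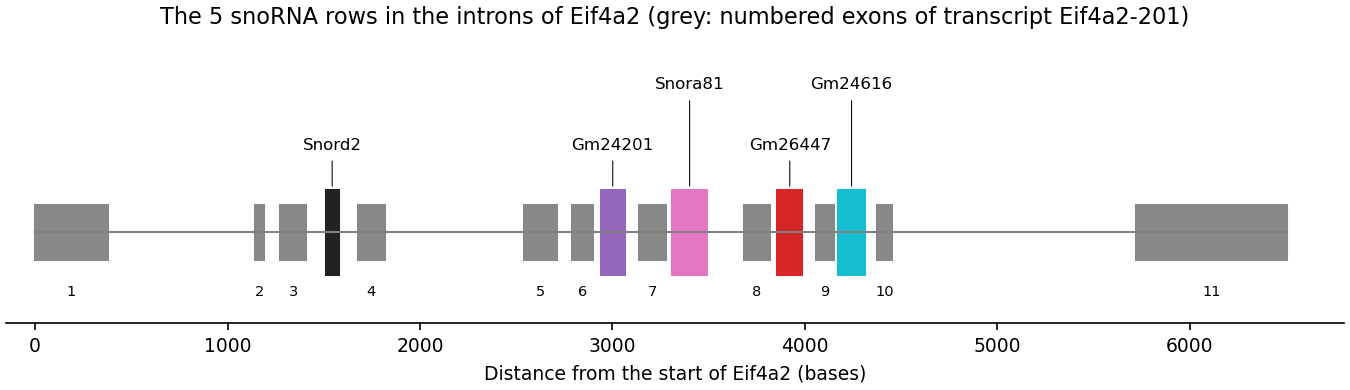
Position of the 5 snoRNA rows (coloured) along Eif4a2, in bases from the start of the gene, with the exons of Eif4a2-201 as numbered grey boxes. Each snoRNA sits in an intron of its own, Snord2 in intron 3 and the 4 longer ones in introns 6 to 9.

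Library totals were 2785150 and 2676776 counts for MES replicates 1 and 2, between 3221641 and 3768668 for the MEF TEsR libraries, and 8961221 and 8442960 for the TruSeq libraries with the indexes ATCACG and CGATGT. The 2 highest rows held from 67.8% to 83.1% of a library, so levels scaled to the total depend on few rows, which in TruSeq included AC161199.1, a row typed as miRNA. The stem cell miRNA markers, with all 11 listed present as rows, had 1298 to 1354 counts in MES, 0 to 5 in MEF TEsR and 0 in TruSeq libraries. Summed, the 13 fibroblast miRNA markers stood at 134 to 143 CPM (counts scaled to a fixed library total) in MES, 4685 to 20911 in MEF TEsR and 68.0 to 99.1 in TruSeq libraries. The TruSeq libraries of fibroblasts lay below MES on this sum, but Mir21a alone had a mean of 132 CPM in MES and 13011 in MEF TEsR. Of the 13 rows, 5 to 6 had counts in MES, 7 to 9 in MEF TEsR and 9 to 10 in TruSeq libraries. The TruSeq libraries also had the highest totals, so these numbers of rows are not compared at equal depth. Muscle markers had at most 17 counts in a library, and the neural, blood and liver markers found as rows were at 0. Nothing in the labels ties libraries of a condition to separate cultures, and the tests therefore measure a spread between libraries that may be technical.

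Snord2 dominated the locus in every library. In MES it had 661 and 630 counts, or 237 and 235 CPM. In MEF TEsR libraries it had 2645 counts in mmS1, 3769 in mmS2, 4625 in pmS1 and 4864 in pmS2, which is 709 to 1510 CPM. In TruSeq it had 23938 and 20383 counts, or 2671 and 2414 CPM. All 4 MEF TEsR libraries thus lay above both MES libraries and below both TruSeq libraries, and they spread more widely than the libraries of either other condition. The mean level was 236 ± 1.39 CPM (SD, n = 2) in MES, 1132 ± 351 (SD, n = 4) in MEF TEsR and 2543 ± 182 (SD, n = 2) in TruSeq. Among snoRNA rows Snord2 ranked 56th to 57th in MES, 20th to 28th in MEF TEsR and 23rd to 24th in TruSeq libraries.

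Gm26447, an H/ACA-length member of intron 8, had the opposite order of cell types within TEsR. It had 72 and 56 counts in MES, then 0, 1, 1 and 1 in mmS1, mmS2, pmS1 and pmS2, and 479 and 381 in TruSeq. Every MES and TruSeq library lay far above all MEF TEsR libraries, of which none had more than a single count. The means were 23.4 ± 3.49 CPM (SD, n = 2) in MES, 0.215 ± 0.144 (SD, n = 4) in MEF TEsR and 49.3 ± 5.89 (SD, n = 2) in TruSeq. The 0 counts of mmS1 allow up to 3 counts.

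The other 3 members were low throughout. Gm24201, the row resembling Gm26447, had 0 and 2 counts in MES, 0 in all 4 MEF TEsR libraries, and 54 and 110 in TruSeq. Only the TruSeq libraries therefore held it above the limit of 3 counts that a count of 0 allows. Snora81 had 5 and 12 counts in MES, 5, 2, 6 and 21 in mmS1, mmS2, pmS1 and pmS2, and 52 and 116 in TruSeq. Its MES and MEF TEsR libraries overlapped, and pmS2 also exceeded the TruSeq library ATCACG on the CPM scale, at 6.52 against 5.80. AC154540.1, which covers the first 103 bases of Snora81, had the same counts except in CGATGT, where it had 112, so these are for the most part the same reads entered on both rows. Gm24616, the member of intron 9, had 3 and 3 counts in MES, 2, 0, 0 and 1 in the MEF TEsR libraries, and 39 and 39 in TruSeq. Its MES and MEF TEsR libraries were all at or under that limit of 3 counts, so no fold between them is given.

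**Figure D2:**
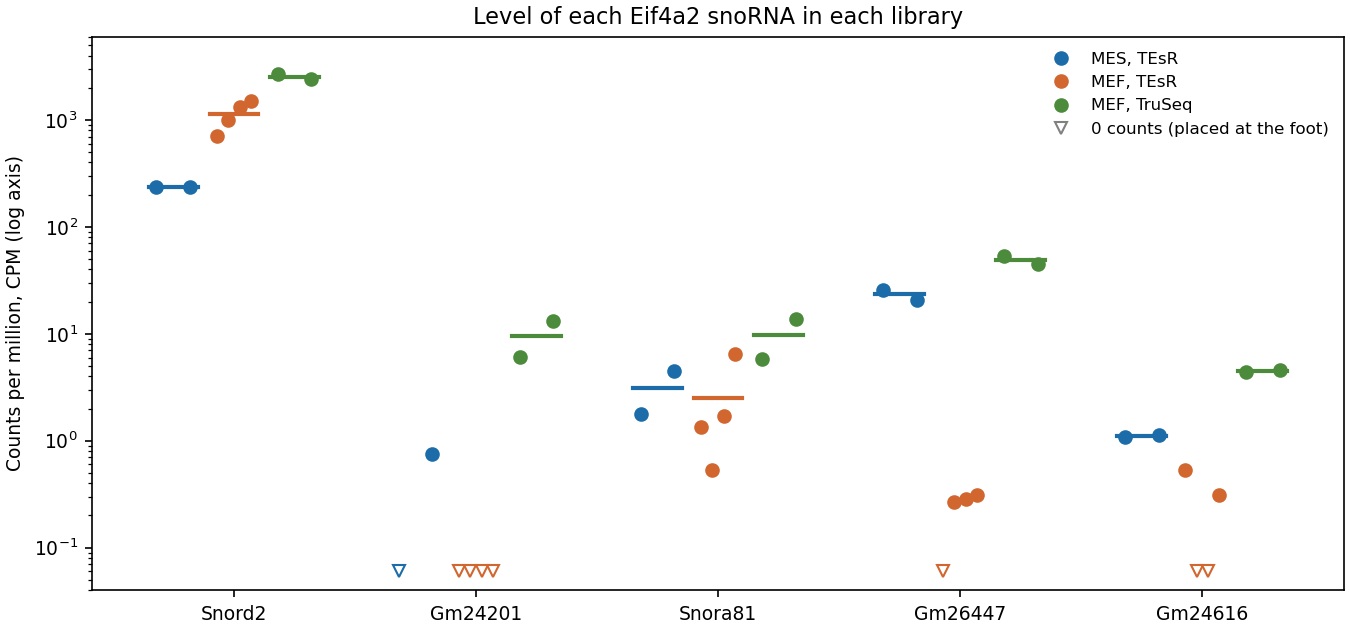
CPM (log axis) of the 5 snoRNAs in each library, with bars at the group mean where all libraries of a group had counts and open triangles for libraries at 0 counts. Snord2 is highest everywhere, and Gm26447 is at 20.9 to 25.9 CPM in MES but at most 0.310 CPM in MEF TEsR.

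Per 100 bases of row, Snord2 stood at 343 ± 2.02 CPM (SD, n = 2) in MES, 1640 ± 509 (SD, n = 4) in MEF TEsR and 3685 ± 263 (SD, n = 2) in TruSeq. On this scale Gm26447 came next in MES with 18.1 ± 2.70 (SD, n = 2) and in TruSeq with 38.2 ± 4.56 (SD, n = 2). Below it in MES, Snora81 at 1.76 ± 1.07, Gm24616 at 0.791 ± 0.0222 and Gm24201 at 0.299 ± 0.423 (SD, n = 2 each) kept this order in both libraries, on 12 counts or fewer and with gaps close to an SD. In TruSeq, Gm24201 at 7.62 ± 3.96, Snora81 at 5.49 ± 3.15 and Gm24616 at 3.23 ± 0.136 (SD, n = 2 each) kept their order in both libraries, but their ranges overlapped. In MEF TEsR, Snora81 followed Snord2 with 1.42 ± 1.52 (SD, n = 4), ahead of Gm26447 at 0.166 ± 0.112 and Gm24616 at 0.152 ± 0.188 (SD, n = 4 each). Snora81 lay above both in each of the 4 libraries, on as few as 2 counts, and Gm26447 and Gm24616 overlapped.

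The makeup of the locus differed between the conditions in a way that no library total enters, since all 5 rows are read from the same library. The 4 longer members together held 80 of 741 counts in MES replicate 1 and 73 of 703 in replicate 2, which is 10.8% (exact Clopper-Pearson 95% interval 8.65 to 13.3) and 10.4% (8.23 to 12.9). In MEF TEsR they held 7 of 2652, 3 of 3772, 7 of 4632 and 23 of 4887 counts, from 0.0795% (0.0164 to 0.232) in mmS2 to 0.471% (0.299 to 0.705) in pmS2. In TruSeq they held 624 of 24562 and 646 of 21029 counts, or 2.54% (2.35 to 2.75) and 3.07% (2.84 to 3.31). No interval of one condition reached those of another. Counted per base of row, the longer members held less, 5.77% ± 0.276 (SD, n = 2) in MES, 0.0989% ± 0.0673 (SD, n = 4) in MEF TEsR and 1.46% ± 0.174 (SD, n = 2) in TruSeq, in the same order. The intervals are binomial within a library and leave out the spread between libraries. Reads carried no molecular identifiers, so amplified copies of an RNA were not told apart from separate RNAs. The share of Snord2 was 89.4% ± 0.291 (SD, n = 2) in MES, 99.8% ± 0.171 (SD, n = 4) in MEF TEsR and 97.2% ± 0.376 (SD, n = 2) in TruSeq. The two-sided exact permutation test over libraries gave p = 0.133 for MEF TEsR against MES and against TruSeq, and p = 0.333 for MES against TruSeq, each the smallest that so few libraries allow.

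**Figure D3:**
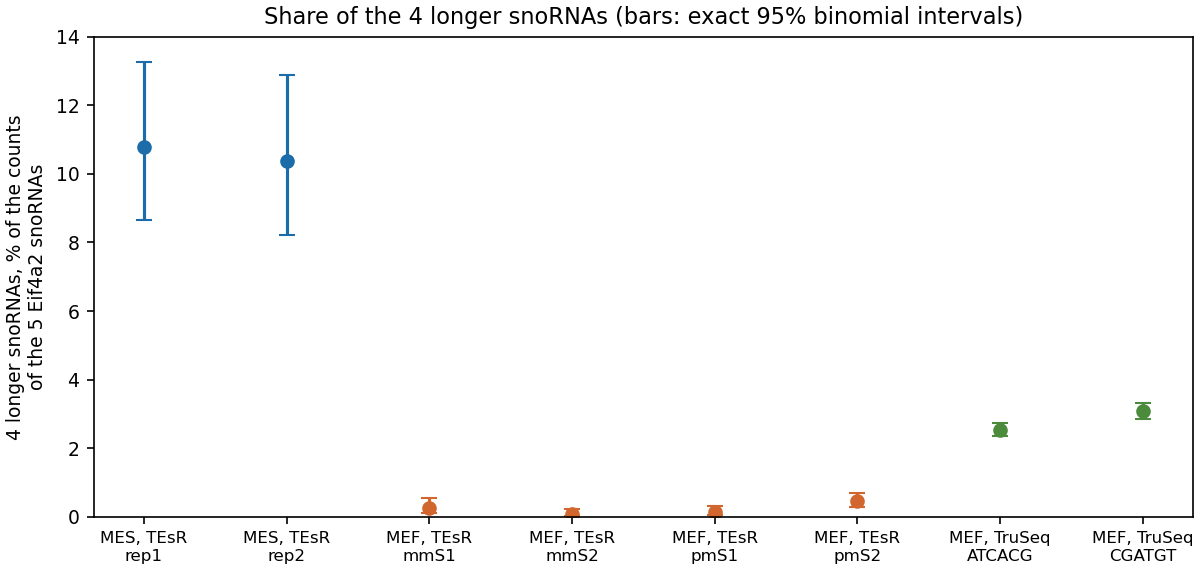
Share of the 4 longer snoRNAs in the counts of the 5 Eif4a2 snoRNAs, per library, with exact 95% binomial intervals as bars. The MES libraries lie at 10.8% and 10.4%, the TruSeq libraries at 2.54% and 3.07% and all MEF TEsR libraries under 0.5%.

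Gm26447 made up most of this difference. For every 1000 counts of Snord2 there were 109 and 88.9 counts of Gm26447 in MES, at most 0.265 in a MEF TEsR library, and 20.01 and 18.7 in TruSeq. Snora81 gave 13.3 ± 8.12 (SD, n = 2) per 1000 Snord2 counts in MES, 2.01 ± 1.64 (SD, n = 4) in MEF TEsR and 3.93 ± 2.49 (SD, n = 2) in TruSeq. Between the related rows Gm26447 and Gm24201 the balance also moved: Gm26447 held 100% (95.01 to 100) and 96.6% (88.1 to 99.6) of their joint counts in MES, but 89.9% (87.0 to 92.3) and 77.6% (73.6 to 81.2) in TruSeq. The TruSeq libraries differed from each other here beyond counting error, and the interval of ATCACG overlapped that of MES replicate 2.

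The comparison of MES with MEF TEsR libraries was made within one method. The MEFs also carried the conditional TRF2 allele with CreERT2, and 2 of the 4 libraries came from cells given 4-hydroxytamoxifen, which cannot be told apart from cell type. Snord2 and Gm26447 moved in opposite directions in it. On the CPM scale Snord2 was 4.79-fold higher in MEF TEsR. Over pooled counts Gm26447 was 111-fold higher in MES (128 against 3 counts, 95% counting interval 37.3 to 547). In edgeR's quasi-likelihood test, with library scaling by the trimmed mean of M-values (TMM) and Benjamini-Hochberg adjustment, the log2 fold change of MES over MEF TEsR was -1.50 ± 0.44 (SE) for Snord2 (adjusted p = 0.00949). For Gm26447 it was 7.32 ± 0.67 (SE) with an adjusted p of 6.22e-06, and for Snora81 1.05 ± 1.00 (SE) with an adjusted p of 0.350. Thus 2 of the 3 members tested were called, while 75.1% of all 273 tested rows were (43.6% higher and 31.5% lower in MES), so a call by itself does not set a member apart. Gm24201 and Gm24616 were too low to be tested. Gm26447 had at most 1 count in a MEF TEsR library and passed the low-count filter (a minimum count of 10) only through MES. It could therefore only be called higher in MES. Snord2 and Gm26447 did not overlap between the groups, which held for 83.5% of tested rows (42.1% higher and 41.4% lower in MES). Without MES replicate 1 or replicate 2 the change of Snord2 stayed as large, at -1.65 ± 0.77 and -1.54 ± 0.70 (SE), but the call was lost (edgeR adjusted p = 0.0918 and 0.0893). With TMM computed on snoRNA rows alone the change of Snord2 grew to -3.14, and relative to the median of the tested rows it was -1.95 with TMM and -1.88 with library size alone.

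Snord2 stood toward the low end of the snoRNAs in that comparison and Gm26447 toward the high end. Of 150 snoRNA rows tested, 135 had a higher log2 fold change than Snord2, and 14 had a higher one than Gm26447. Of these snoRNA rows 93 rose in MES and 21 fell, with a median of 2.63 against 0.45 over all tested rows. The rows named Snord, the box C/D type of Snord2, had a median of 2.58, with 43 of 70 higher and 10 lower in MES. The rows named Snora, the box H/ACA type, had 5 of 6 higher and 0 lower, with a median of 6.99. Split by length, rows of 100 bases or more had a median of 5.43, with 25 of 29 higher and 2 lower. Only 29 of 1049 such rows passed the low-count filter. Rows near 0 counts in MEF TEsR, as Gm26447, passed it only through MES and could only be higher there. How many of the 29 did so was not counted. Rows under 100 bases had a median of 1.78, with 68 of 121 higher and 19 lower. With TMM on snoRNA rows the balance was more even: 72 of the 150 rose and 47 fell (median 0.92), with 48 and 44 of the shorter rows (median 0.13) and 24 and 3 of the longer rows (median 3.73). With library size alone 109 of all tested rows were higher and 108 lower. In the fit to all rows with TMM, Gm26447 at 7.32 was above the median of its length class, and Snora81 at 1.05 and Snord2 at -1.50 were below theirs, and so they were with TMM on snoRNA rows, at 5.76, -0.65 and -3.14. In bulk RNA, fewer cells holding an RNA and less of it per cell cannot be told apart.

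The MEF TEsR and TruSeq libraries compare the methods in one cell line, with instrument, depth and the presence of uninduced libraries changing alongside; these cannot be told apart. Of the longer members, Gm24201, Gm26447 and Gm24616 were called lower in TEsR, and Snord2 was not called. These 3 had at most 2 counts in a MEF TEsR library and passed the low-count filter only through TruSeq. They could therefore only be called lower in TEsR. Gm26447 was 235-fold higher in TruSeq over pooled counts (95% counting interval 80.1 to 1141), with an edgeR log2 fold change of TEsR over TruSeq of -7.16 ± 0.79 (SE) and an adjusted p of 2.25e-06. Gm24201, at 0 in all 4 TEsR libraries, was at least 11.3-fold lower there, against a limit of 3 counts per library (at least 7.13-fold without CGATGT), and was called by edgeR (adjusted p = 7.07e-05). Gm24616 was 21.3-fold higher in TruSeq over pooled counts (7.02 to 106), on 3 TEsR counts of which 2 were in mmS1. Without mmS1 the ratio was 47.2 (8.22 to 1887). For this row edgeR gave -3.69 ± 0.88 (SE) on the log2 scale with an adjusted p of 0.00142. Its change was about as large but not called with DESeq2 (-3.12, adjusted p = 0.0519) and without ATCACG (-3.34, edgeR adjusted p = 0.115) or CGATGT (-3.91, edgeR adjusted p = 0.0706). With TMM on snoRNA rows it shrank to -1.22 (edgeR adjusted p = 0.217). For Snora81 edgeR gave -1.23 ± 0.83 (SE) on that scale with an adjusted p of 0.170, not a call, and the value became -2.32 with an adjusted p of 0.00150 without pmS2. It turned to 1.24 with TMM on snoRNA rows (adjusted p = 0.184) and passed the threshold at -1.96 with library size alone (adjusted p = 0.0458).

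Snord2 was 2.247-fold higher in TruSeq than in MEF TEsR in CPM, with no overlap between libraries, but its direction differed between fits. The edgeR log2 fold change of TEsR over TruSeq was -0.53 ± 0.42 (SE, adjusted p = 0.244) with TMM. It was -1.17 with library size alone (adjusted p = 0.0143), 0.11 with DESeq2 (adjusted p = 0.826) and 2.01 with TMM on snoRNA rows (adjusted p = 0.000536). Of the 5 members, all tested, 3 were called, all lower in TEsR, beside 88.1% of 352 tested rows, with 55.7% lower and 32.4% higher in TEsR. The low-count filter left those 3 no other direction. Groups did not overlap for 4 of the 5 members, Snora81 excepted, and for 90.3% of tested rows (29% higher and 61.4% lower in TEsR). The medians of all tested rows (-2.42) and of the 218 snoRNA rows (-4.68) were both below 0. Of the 87 snoRNA rows of at least 100 bases 79 fell and 0 rose in TEsR, with a median of -7.15. Of the 131 shorter rows 87 fell and 23 rose, with a median of -2.63. Rows near 0 counts in TEsR passed the low-count filter only through TruSeq and could only fall. How many did so was not counted. With TMM on snoRNA rows 53 snoRNA rows were higher and 131 lower in TEsR (median -2.24). In that fit 4 of the longer rows rose and 73 fell (median -5.75), and 49 of the shorter rows rose and 58 fell (median -0.15). With TMM on all rows Gm26447 was close to the median of its length class, and Snord2 was above that of its own.

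In the comparison of MES by TEsR with MEFs by TruSeq, cell type and method change together. Snord2 was 10.8-fold higher in TruSeq on the CPM scale, with an edgeR log2 fold change of MES over TruSeq of -2.07 ± 0.18 (SE, adjusted p = 1.50e-05). The CPM fold was 6.56 with the 2 highest rows of each library left out of the total. Snord2 was in the middle of the 235 snoRNA rows tested, with 118 higher and 116 lower log2 fold changes. Gm24201 was 25.7-fold higher in TruSeq over pooled counts (2 against 164 counts, interval 7.01 to 214), with -3.27 ± 1.00 (SE, edgeR adjusted p = 0.0156). Both MES counts were in replicate 2. With so few counts Gm24201 passed the low-count filter only through TruSeq and could only be called lower in MES. Without replicate 1 the pooled ratio was 12.6 (3.44 to 105) and the call was lost at -2.29 (edgeR adjusted p = 0.110). Without CGATGT the ratio was 16.5 (4.34 to 139), and without replicate 2 MES had 0 counts, which makes TruSeq at least 8.84-fold higher against the limit of 3 counts per library. Gm26447 gave 0.28 ± 0.31 (SE, edgeR adjusted p = 0.422), although it was 2.11-fold lower in MES in CPM. With library size alone it fell by 1.07 in MES on the log2 scale (edgeR adjusted p = 0.0133). With TMM on snoRNA rows it was 1.06 higher there (edgeR adjusted p = 0.00989), and with no filter it was at -0.14. Its direction thus differed between fits, and the cause was not tested. Snora81 at -0.24 ± 0.65 (SE, edgeR adjusted p = 0.725) and Gm24616 at -0.66 ± 0.59 (SE, edgeR adjusted p = 0.315) were not called. Both were called lower in MES with library size alone, at -1.64 and -2.01. In all, 2 of 5 members were called, both lower in MES, beside 86.6% of 352 tested rows (36.6% higher and 50% lower in MES). No member overlapped between the groups, each being lower in MES in CPM. Groups did not overlap, in either direction, for 97.2% of tested rows (32.1% higher and 65.1% lower in MES). Library size alone moved the median of all tested rows from -1.06 to -2.42, and the share of higher calls among all calls from 42.3% to 31.6%. The 2 comparisons with MES libraries share those libraries, and the 2 with TruSeq libraries share theirs.

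**Figure D4:**
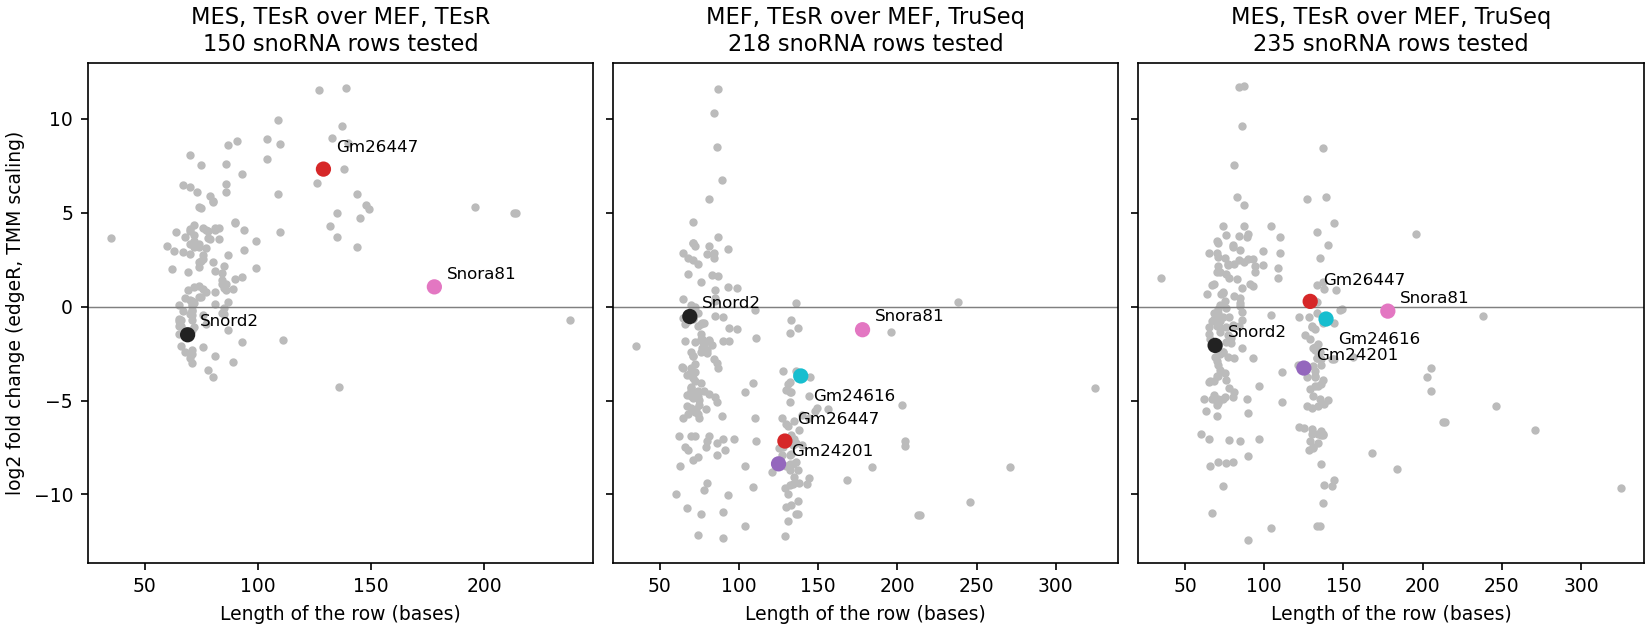
edgeR log2 fold change (TMM scaling) of every tested snoRNA row against its length in bases, in the 3 comparisons, with the Eif4a2 members coloured and named. Snord2 and Gm26447 lie on opposite sides of 0 in MES over MEF TEsR, and the rows of 100 bases or more lie mostly below 0 in MEF TEsR over TruSeq.

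The snoRNAs of other translation factor genes that could be tested lay on the other side of 0 from Snord2 between the TEsR groups. Of 13 such rows 6 were tested in MES against MEF TEsR, and all 6 were called higher in MES (median 3.65), beside 43.6% of all tested rows and 62% of snoRNA rows. Rows such as Gm22988 in Eif4a1, with 17 to 18 counts in MES and at most 2 in a MEF TEsR library, passed the low-count filter only through MES. They could only be higher in MES. With TMM on snoRNA rows 4 of the 6 were called higher. Gm26447, in Eif4a2 itself, was also called higher in MES. It too passed the filter only through MES, so no other direction was open to it. Snord37, in Eef2, the factor that moves the ribosome along, stood at 707, 80.9 and 1147 CPM in MES, MEF TEsR and TruSeq. Gm26457, in the elongation factor gene Eef1b2, stood at 1166, 161 and 1034 CPM, and snoZ196 lies inside it with nearly the same counts, so 2 of the 6 rows rest on largely the same reads. Both were higher in MES than in MEF TEsR. Snord66, in the scaffold gene Eif4g1, had 52.6, 18.03 and 1592 CPM, and Gm23262, in its relative Eif4g2, had 3.12, 1.88 and 1786 CPM. Both were highest in TruSeq. Gm25835, in Eif4a1, the paralog of Eif4a2, had 8.08, 1.62 and 146 CPM. Snora28, in the initiation factor gene Eif5, had 0.733, 0.789 and 75.5 CPM, and Snora41, in Eef1b2, had 0.366, 0.233 and 12.5 CPM. In MEF TEsR against TruSeq 8 of the 13 were tested and all 8 were called lower in TEsR (median -5.49). Of all tested rows 55.7% were called lower there, and of snoRNA rows 76.1% (median -4.68), so most snoRNA rows went the same way. Rows such as Gm23262, Snora28 and Snora41, with at most 9, 4 and 3 counts in a MEF TEsR library, entered only through TruSeq. They could only be lower in TEsR. In MES against TruSeq 4 of 10 were higher and 5 lower in MES. Of all tested rows 36.6% were higher and 50% lower there, and of snoRNA rows 26.8% and 58.7%. Of the rows hosted by ribosomal protein genes, 25 of 39 tested were higher and 7 lower in MES than in MEF TEsR (64.1% and 17.9%). Their median was 2.38, and of all snoRNA rows 62% were higher and 14% lower. Against TruSeq, 8 of 53 were higher and 36 lower in MEF TEsR (15.1% and 67.9%, median -3.77), beside 10.6% and 76.1% of snoRNA rows. In MES 20 of 54 were higher and 29 lower than in TruSeq (37.0% and 53.7%, median -1.03), beside 26.8% and 58.7% of snoRNA rows. With TMM on snoRNA rows the counts for ribosomal protein hosts were 19 and 13 of 39 in MES against MEF TEsR. They were 18 and 28 of 54 in MEF TEsR against TruSeq, and 23 and 22 of 54 in MES against TruSeq.

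The snoRNA rows outside Eif4a2 whose levels followed each member most closely were found by Pearson's r of log2(CPM + 1) over the 8 libraries, among 165 rows. The libraries of a method share its depth and its leading rows, so r is a description. For Snord2 they were Snord4a, in the ribosomal protein gene Rpl23a (r = 0.992), and Gm22193, in Sf3b3 (r = 0.972). Snord4a stood at 483, 6763 and 16138 CPM in MES, MEF TEsR and TruSeq, the same order as Snord2. For Gm26447 they were Snord1b (r = 0.993) and Snord14c, in the chaperone gene Hspa8 (r = 0.991). Snord14c stood at 51.5, 0.411 and 163 CPM, also lowest in MEF TEsR. Gm24201 was most like Snord67 in Ckap5 and Gm23547 in Phb2 (r = 0.990 each), and Gm24616 most like Gm23969 in Rpl7a and Gm24451 in Nop56 (r = 0.975 each). Snora81 had the loosest match, with r = 0.801 for Snora73a and 0.787 for Snord61.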

How the data were processed

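Small RNAs were measured in 8 libraries: 2 of MES cells and 4 of MEFs by TEsR, and 2 of MEFs by TruSeq. The authors deposited 2 tables of whole-number counts for an identical set of 5518 small RNA rows, without normalization, per the file headers. Cutadapt, BWA 0.7.12, SAMtools 1.2.1, bedtools 2.25.0 and mm10 are named in the submitters' processing notes. For counting settings and strand use nothing is given in the sources used here. TEsR column names carry a tag, q10, that the TruSeq names lack. Sample titles call the TruSeq libraries induced and were followed, although their table is named a control.

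Row types, strands and hosts came from GENCODE vM21. CPM are counts over all counts of a library, and 1 count was worth 0.112 to 0.374 CPM. Tests were run with edgeR 4.0.16 under R 4.3.3 (robust quasi-likelihood fit, TMM, filterByExpr with a minimum count of 10, adjusted p under 0.05), on only the 2 conditions compared. They were also run on simulated counts. The spread of those counts was set beforehand and not taken from these libraries, so that run does not measure error rates here. DESeq2 1.42.0 was an alternative, beside other scalings, no filter, duplicate rows counted once and each library left out. Pooled-count ratios without each library, and list counts under other scalings, were added after seeing the data. Pooled-count intervals are exact and cover counting error. Hairpins were predicted with RNAfold 2.7.2 and similar rows found with blastn 2.17.0. Every pair of libraries within a condition differed beyond sampling noise, with a chi-square of at least 21.9 per degree of freedom. All 5 members were named in every comparison, with the 2 most alike snoRNA rows of each and the snoRNAs of other translation factor hosts that reached a mean of 10 CPM in a condition. The members and lists were chosen with earlier results of these data known.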

Additional observations from a re-analysis of the deposited data

Results flagged for a closer look

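Within the 4 MEF TEsR libraries, the level of Gm26447 in mmS1 stood apart from the others: its gap to the nearest library was 0.855 of the whole range. The counts behind it were 0, 1, 1 and 1, so the gap is that of a single count. Chance sets apart about 1 in 20 groups, and 6 were examined.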

How the results depend on the processing

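Of 65 results recomputed under other processing 49 kept direction and call, as did 59 of 67 with a library left out. These totals include results that were not called in either fit. They also include Gm26447, Gm24201 and Gm24616 in comparisons where the low-count filter left a single direction. Gm26447 was called in all 11 alternatives of MES against MEF TEsR (5.76 to 7.54) and of MEF TEsR against TruSeq (-7.71 to -4.68). In both comparisons Gm26447 passed the low-count filter only through the group other than MEF TEsR, which set its direction. With snoRNA rows only, 119, 184 and 187 rows were called in MES against MEF TEsR, MEF TEsR against TruSeq and MES against TruSeq, in place of 205, 310 and 305. That fit changes both the rows tested and the scaling, and with TMM on all rows 114, 189 and 201 snoRNA rows were called. In the fit to snoRNA rows only, Snora81 turned to -0.65, 1.24 and 0.54 in these comparisons, Snord2 to 2.01 in the second and Gm24616 to 0.11 in the third. DESeq2 turned Snord2 to 0.11 in MEF TEsR against TruSeq and Snora81 to 0.21 in MES against TruSeq. Gm26447 in MES against TruSeq turned to -1.07 with library size alone and to -0.14 with no filter. With each library left out in turn, Snora81 there ranged from -0.82 to 0.42, beside -0.24 with all libraries. The cause of these reversals was not tested. With no filter Gm24201 and Gm24616 gave 3.91 and 2.83 in MES over MEF TEsR (edgeR adjusted p = 0.101 and 0.0930). Counted per base, Snord2 held 94.2% of the locus in MES and 98.5% in TruSeq. CPM without the 2 highest rows of each library rose, for Snord2 to 1288, 5508 and 8452 in MES, MEF TEsR and TruSeq. No paired analysis was possible because the MEF TEsR columns could not be matched to single samples and the TruSeq columns carry no replicate number. With at most 3 counts in any TEsR library, Gm24201 and Gm24616 were at or under the limit of 3 counts there. The cause was not tested.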
